A study of Mus musculus with 6 samples.

Results

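The genes described here make, carry or break down retinoic acid in the mouse uterus: Rbp4, Stra6, Dhrs3, Aldh1a1, Aldh1a2, Aldh1a3, Crabp1, Crabp2 and Cyp26a1. These 9 genes were chosen by name for their roles and by no rule on their values, though earlier results of these data were known. All 9 were among the 24077 genes of the single-cell count table and the 30828 genes counted in each tissue section. The uteri came from CD-1 mice aged 12 months. As female pups the mice had received corn oil alone (CO) or the synthetic estrogen diethylstilbestrol in corn oil at 1 mg/kg/day (DES), by injection under the skin from day 1 to day 5 after birth. One single-cell RNA library was made per treatment, from 2 pooled CO mice and from 4 pooled DES mice, so a difference between these libraries had no replicate check and was not tested. Spatial RNA profiles came from 2 CO sections (CO A and CO B) and 2 DES sections (DES A and DES B), with 1 mouse per section. The CO mice of the sections were in estrus, and DES mice remain in persistent estrus. The DES sections were picked because they held adenocarcinoma, so tumor content and treatment cannot be told apart. CO B had a fold in the tissue, and clusters could be identified only to a limited degree in DES B. For these reasons the study based most of its spatial results on CO A and DES A.

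Retinol travels in blood on retinol-binding protein 4 (RBP4) and enters some cells through the membrane receptor STRA6. Inside the cell retinol is oxidized to retinal, a step that dehydrogenase/reductase 3 (DHRS3) runs backwards, and the aldehyde dehydrogenases ALDH1A1, ALDH1A2 and ALDH1A3 then turn retinal into retinoic acid. The carriers CRABP1 and CRABP2 bind retinoic acid in the cytoplasm, CRABP2 passes it to nuclear receptors, and CYP26A1 destroys it. Stra6, Dhrs3, Crabp2 and Cyp26a1 are known in several tissues as genes that retinoic acid itself induces, and in the uterus ALDH1A2 is known from the stroma.

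The CO library held 32387 cells and 353460067 unique molecular identifiers (UMIs, each counting 1 captured RNA molecule), and the DES library held 16312 cells and 288919190 UMIs. A cell type stood in the deposited annotation for 12253 CO and 9701 DES cells. The DES library held a single stromal cell, so stromal levels came from the CO cells and from the sections only. The stromal genes Dpt and Pdgfra were both at 265 counts per 1000000 UMIs (CPM) in CO stromal cells. They were at 184 and 213 in the cells named for Ctla2a and at 3.13 or less in mesothelial and epithelial cells. The stromal genes Vcan, Dcn and Col6a3 stood in the Ctla2a cells at 23.3%, 22.6% and 6.50% of their level in stromal cells. Dcn was at 8859 CPM in stromal and 17675 in mesothelial CO cells, so it marks both, and the epithelial adhesion gene Epcam was at 1040 CPM in CO epithelial and 793 in DES epithelial cells. The CO cells labelled lymphocytes held more Lyz2, a myeloid gene, than those labelled myeloid (3121 against 1889 CPM), so both are named by label only. Between the libraries 180 cell barcodes were shared. The sections held 1357 to 1834 spots and 9117099 to 12506177 UMIs each. A spot covers several cells, so in sections fewer cells of a type and less RNA per cell cannot be told apart. Values in single cells are CPM of the UMIs summed over the cells of a group, with exact 95% Poisson intervals that cover counting error only.

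The genes differed in where they were highest, with Aldh1a1, Aldh1a2 and Crabp1 sharing the stromal cells. Among CO cell types with at least 50 cells Aldh1a1, Aldh1a2 and Crabp1 were highest in stromal cells, Rbp4 in mesothelial cells, Cyp26a1 and Crabp2 in epithelial cells, Stra6 in the cells the authors named for Ctla2a, and Dhrs3 in the cells labelled myeloid. The plot of levels by cell type shows these places. Since these UMIs were counted at the 3′ ends of transcripts and not per length, a level is compared here only between cells, never between genes.

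**Figure D1:**
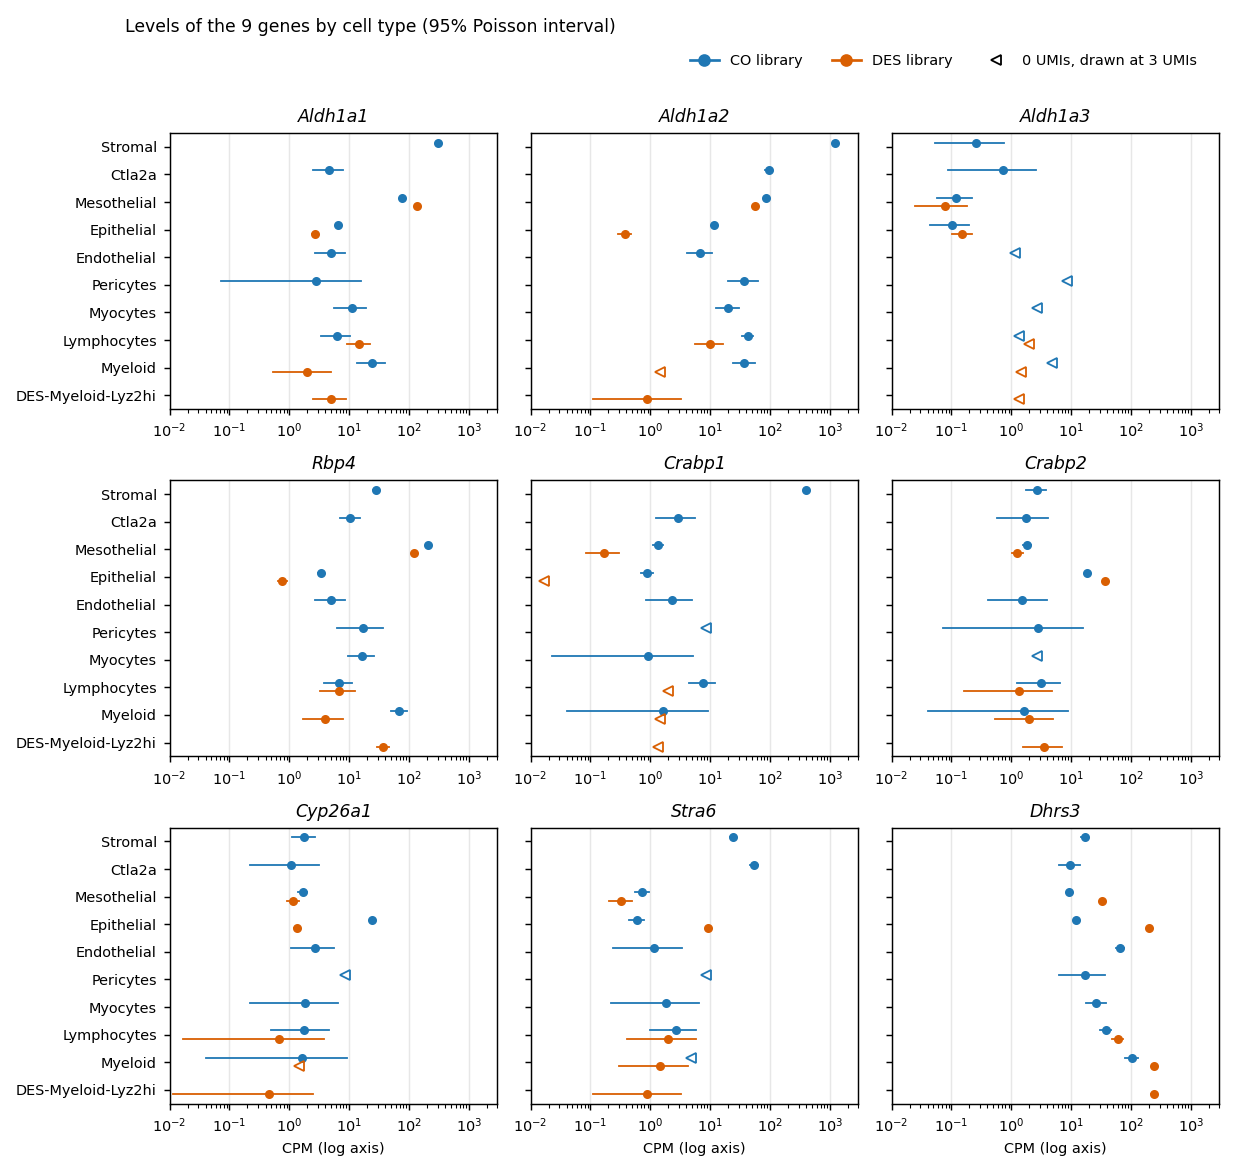
CPM (log axis) of each of the 9 genes in the authors' cell types with at least 50 cells, CO library in blue and DES library in orange, with 95% Poisson intervals as lines and open triangles at the level of 3 UMIs where no UMI was counted. Aldh1a2 and Crabp1 peak in CO stromal cells (1217 and 398 CPM), Rbp4 in mesothelial cells (205 and 121 CPM), and Dhrs3 is at 12.2 CPM in CO and 202 in DES epithelial cells.

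Rbp4 (chromosome 19, 38116629 to 38125281, minus strand, mouse GRCm38) was highest in mesothelial cells among the cell types with at least 50 cells. It stood at 205 CPM (95% interval 202 to 208) in CO mesothelial cells and at 121 (118 to 123) in DES mesothelial cells, a DES to CO ratio of 0.588 (0.573 to 0.604). Epithelial cells held far less of it, 3.41 CPM in CO and 0.761 in DES, and CO stromal cells held 27.9 CPM. Cells labelled myeloid in CO and Lyz2-high myeloid in DES held 68.2 and 37.3 CPM, 33.2% and 30.9% of the mesothelial level. The mesothelial genes Msln, Upk3b, Lrrn4, Gpm6a and Muc16 stood in these cells at 14.8% to 26.4% and at 1.65% to 2.68% of theirs. The part of freed RNA there was not tested. The mesothelium is the sheet that covers the outside of the uterus, and Rbp4 was found in 68.5% of its CO cells and 65.5% of its DES cells. Once every cell was thinned to 3000 UMIs, which 6718 of 6866 CO and 3782 of 3837 DES cells reached, the shares were 37.6% and 27.0%.

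Stra6 (chromosome 9, 58063788 to 58153996, plus strand), the receptor that takes retinol from RBP4, was highest outside the epithelium in the CO library and in the epithelium in the DES library. The DES library held no cells labelled Ctla2a and 1 stromal cell, so the levels of those cells could not be compared. In CO it was at 53.8 CPM (45.5 to 63.1) in the Ctla2a cells, 24.4 (21.6 to 27.4) in stromal cells and 0.596 in epithelial cells. In DES epithelial cells outside the basal cells it reached 6.85 CPM (6.45 to 7.26), which is 11.5-fold the CO level (8.57 to 15.7). Basal cells, here the 483 DES epithelial cells with at least 2 UMIs each of Krt14 and Trp63, had 40.5 CPM (36.6 to 44.6). Among the 16 non-basal DES clusters the level ran from 1.12 to 53.6 CPM, highest in DES 14 (44.8 to 63.7) and then in DES 7 at 34.4 (30.7 to 38.4) and DES 9 at 19.1 (16.2 to 22.5). The intervals of these 3 clusters did not overlap one another. In CO the 15 clusters lay between 0 and 13.6 CPM, with the highest value in CO 12 (8.70 to 20.2), which was 55.7% of the stromal level while the stromal gene Crabp1 had no UMI in that cluster. Its 24 UMIs came from 20 of the 71 cells, of which 1 kept a UMI after thinning.

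Dhrs3 (chromosome 4, 144892827 to 144928209, plus strand), which returns retinal to retinol, differed between the libraries in every epithelial cluster. Non-basal epithelial cells held 12.2 CPM in CO (11.5 to 13) and 173 in DES (171 to 175), a ratio of 14.1 (13.3 to 15.1). Every one of the 16 DES clusters, from 49.7 CPM in DES 15 to 428 in DES 5, was above every one of the 15 CO clusters, from 6.56 to 37.5 CPM in CO 8. DES 5 is the cluster that the authors proposed to be cancer cells, and DES 7 was close to it at 409 CPM (396 to 422 against 414 to 442). Basal cells stood higher still, at 622 CPM (607 to 638), and 82.0% of them had a Dhrs3 UMI after thinning (99.4% before), against 37.9% of the non-basal DES cells (86.5% before) and 3.86% of the CO cells (25.6% before). The depth needed was reached by all 483 basal cells, 4559 of 4608 non-basal DES cells and 2562 of 2583 CO cells.

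Outside the epithelium Dhrs3 was also higher in the DES library. Mesothelial cells held 9.33 CPM in CO and 33.4 in DES, a ratio of 3.59 (3.30 to 3.90), and cells labelled myeloid had 104 CPM in CO (80.0 to 133) and 243 in DES (222 to 265). Droplets can also take up RNA freed from other cells, so epithelial markers were read beside these levels. In DES mesothelial cells Epcam, Cdh1 and Wfdc2 stood at 3.56%, 4.46% and 4.54% of their level in all DES epithelial cells, basal cells included, Krt8 and Krt18 stood at 28.3% and 29.2%, and Dhrs3 stood at 16.5%. In DES cells labelled myeloid these 5 markers stood at 4.39% to 8.19% of that level and Dhrs3 at 120%. The part of freed RNA in the mesothelial difference was not tested.

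**Figure D2:**
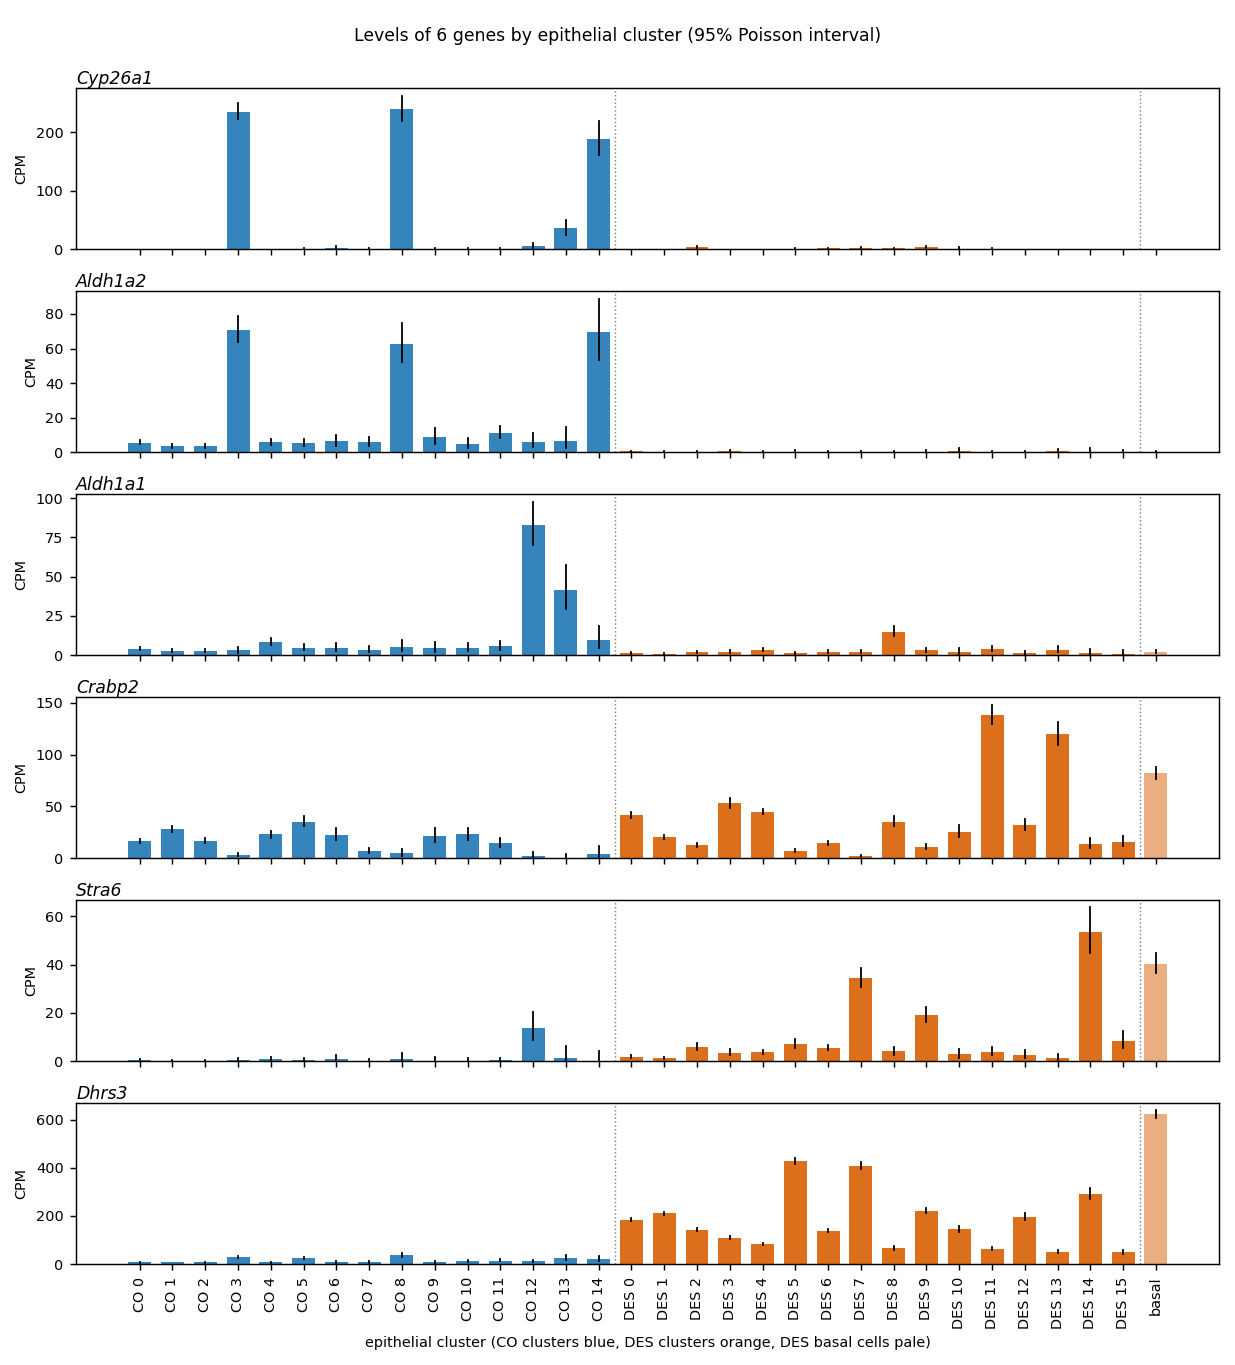
CPM on linear axes from 0 of 6 of the genes in the 15 CO (blue) and 16 non-basal DES (orange) epithelial clusters of the authors and in the DES basal cells (pale), with 95% Poisson intervals as lines. Cyp26a1 and Aldh1a2 stand out in CO 3, CO 8 and CO 14, Aldh1a1 in CO 12 and CO 13, Crabp2 in DES 11 and DES 13, and Dhrs3 is above 49 CPM in all DES clusters.

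Aldh1a1 (chromosome 19, 20492715 to 20643465, plus strand) and Aldh1a2 (chromosome 9, 71215789 to 71296243, plus strand) encode the enzymes that complete retinoic acid synthesis. In CO stromal cells Aldh1a1 was at 309 CPM (299 to 319) and Aldh1a2 at 1217 CPM (1197 to 1237), and 45.0% and 85.9% of the stromal cells held a UMI after thinning (65.3% and 93.2% before). In mesothelial cells the pair went opposite ways between the libraries. Aldh1a1 was 76.3 CPM in CO and 135 in DES, a ratio of 1.76 (1.71 to 1.82), while Aldh1a2 was 85.0 CPM in CO and 55.2 in DES, a ratio of 0.650 (0.624 to 0.677). Aldh1a7, a close copy of Aldh1a1, held at most 77 UMIs in any group of cells, and how reads shared by the 2 copies were assigned is not given in the sources used here.

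Within the CO epithelium the 2 genes occupied separate clusters. Aldh1a2 was at 70.8, 62.7 and 69.4 CPM in CO 3, CO 8 and CO 14, which the study placed in the gland lineage, and between 3.45 and 11.2 CPM in the other 12 clusters. Aldh1a1 was at 83.2 CPM (70.3 to 97.8) in CO 12 and 41.5 (29.3 to 57.3) in CO 13, and at most 9.92 CPM elsewhere in CO. These 133 of 2583 CO cells held 184 of 516 Aldh1a1 UMIs. Aldh1a1 in the whole CO epithelium stood at 2.12% of its stromal level. The stromal genes Dcn, Col6a3, Dpt, Vcan and Pdgfra stood there at 2.44%, 0.643%, 0.431%, 0.428% and 0.368% of theirs. The part of freed stromal RNA in this level was not tested. CO 12 is the cluster the authors proposed as epithelial stem cells with Aldh1a1 among the genes they used, so its level there is no independent finding. In the DES clusters Aldh1a1 was highest in DES 8, at 15 CPM (12.1 to 18.5), and Aldh1a2 never exceeded 0.918 CPM.

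Stromal markers were read beside the epithelial Aldh1a2 levels. In CO 3, CO 8 and CO 14 Aldh1a2 stood at 5.82%, 5.15% and 5.70% of its stromal level. Over the same 3 clusters Crabp1 stood at 0.206% to 0.554% of its stromal level, Pdgfra at 0% to 0.831%, Col6a3 at 0.718% to 1.14%, Vcan at 0.476% to 1.59%, Dpt at 0.386% to 2.49% and Dcn at 2.55% to 5.13%. In the other 12 CO clusters Aldh1a2 stood at 0.283% to 0.917% and Dcn at 1.66% to 4.70%. Over the whole CO epithelium Crabp1, Pdgfra, Vcan, Dpt and Col6a3 stood at 0.223%, 0.368%, 0.428%, 0.431% and 0.643%. The part of freed stromal RNA in these levels was not tested. No such values could be set beside the DES clusters, whose library held 1 stromal cell. The DES to CO ratio of Aldh1a2 in non-basal epithelium, 0.0324 (0.0246 to 0.0419), was 0.0699 (0.0525 to 0.0916) when CO 3, CO 8 and CO 14 were left out of the CO side.

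Aldh1a3 (chromosome 7, 66390890 to 66427517, minus strand) was barely detected. It had 34 UMIs in the whole CO library and 48 in the DES library, and the highest DES cluster was DES 14 with 8 UMIs, 3.30 CPM (1.42 to 6.50).

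Crabp1 (chromosome 9, 54764748 to 54773110, plus strand) was the most stroma-restricted of the 9 genes. CO stromal cells had 398 CPM (386 to 409), and no other CO cell type exceeded 7.56 CPM. No UMI was found in the 4608 non-basal DES epithelial cells, where 3 UMIs would be 0.0183 CPM. The carrier and the enzyme were often found in the same stromal cells: of 1303 thinned cells, 623 held Crabp1, 1119 held Aldh1a2 and 589 held both (45.2%, against 41.1% for the product of the 2 shares).

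Crabp2 (chromosome 3, 87948666 to 87953376, plus strand), the carrier that serves the nuclear receptors, was an epithelial transcript in both libraries. Non-basal cells held 18.5 CPM in CO (17.5 to 19.5) and 33.0 in DES (32.1 to 33.9), a ratio of 1.79 (1.68 to 1.89), and the ratio was 2.04 when every cell counted equally. The DES level was uneven. DES 11 had 139 CPM (129 to 148) and DES 13 had 120 (109 to 132), with intervals that met, whereas DES 7 had 2.08 CPM. Basal cells had 81.9 CPM (76.4 to 87.8). In CO the level was highest in CO 5, at 35.4 CPM (31.0 to 40.2), and it was 3.07 CPM in CO 3 and without a UMI in CO 13.

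Cyp26a1 (chromosome 19, 37697798 to 37701536, plus strand), which breaks retinoic acid down, was concentrated in the gland lineage of the CO uterus. CO 3 had 236 CPM (222 to 250), CO 8 had 240 (220 to 263) and CO 14, proposed as gland progenitors, had 190 (162 to 220). Cells of CO 13, proposed as mature glands, had 35.9 CPM (24.6 to 50.7), and no other CO cluster exceeded 6.22. CO 3, CO 8 and CO 14 made up 13.7% of the CO epithelial cells and held 94.8% of their Cyp26a1 UMIs. The gland gene Napsa was at 2347, 2466 and 1681 CPM in these 3 clusters and at 66.3 or below in the other CO clusters, CO 13 included. The paper uses Napsa and Klk1 as markers of developing glands and Sult1d1 as a general gland marker. Foxa2, Spink1 and Prss29 are its markers of mature glands, and it reports them as high in the mature gland cluster. Napsa therefore stands for developing glands here and not for the gland lineage as a whole.

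Across non-basal epithelium Cyp26a1 was at 24.2 CPM in CO (23.2 to 25.4) and 1.40 in DES, a ratio of 0.0576 (0.050 to 0.0661). Against the CO clusters other than CO 3, CO 8 and CO 14 the DES to CO ratio was 1.00 (0.787 to 1.28), and with CO 13 left out as well, a setting chosen after seeing the data, it was 1.46 (1.11 to 1.95). No DES cluster exceeded 4.27 CPM, in DES 9, and basal cells had no UMI, where 3 UMIs would be 0.303 CPM. Fewer cells of the gland lineage and less Cyp26a1 in each of them cannot be told apart in this ratio.

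The enzyme that makes retinoic acid and the one that destroys it met in the gland clusters. Of 2562 thinned CO epithelial cells, 98 held an Aldh1a2 UMI, 156 a Cyp26a1 UMI and 30 both, or 1.17% against 0.233% for the product of the shares. Within CO 3 alone the shared cells were 8.82% against 8.36% for the product, and within CO 8 alone 7.32% against 5.59%. No thinned cell held both Crabp2, found in 113 cells, and Cyp26a1. These shares describe cells of 1 library and were not tested.

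The promoter of Cyp26a1 is shown because the gene was 166-fold (136 to 205) higher in CO 3, CO 8 and CO 14 than in the other CO clusters, and because it carries the kind of motif that retinoic acid receptors are known to bind. It spans chr19:37697558-37697807 on the plus strand of GRCm38.p6 (RefSeq), 250 bases that end 1 base before the RefSeq start site. That start lies further along than the gene start given above, so the window runs into the gene as GENCODE draws it. The capitals mark 2 half-sites that lie 32 to 16 bases before the RefSeq start and read AGTTCA on the other strand.
Cyp26a1 promoter: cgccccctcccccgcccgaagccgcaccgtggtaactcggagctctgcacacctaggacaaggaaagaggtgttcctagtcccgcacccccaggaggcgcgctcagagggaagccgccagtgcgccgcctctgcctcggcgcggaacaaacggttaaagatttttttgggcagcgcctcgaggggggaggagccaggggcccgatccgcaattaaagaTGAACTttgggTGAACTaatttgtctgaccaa
The spaced pair, spelled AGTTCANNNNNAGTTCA and searched on both strands, was in 8 of 32851 mouse promoter windows (0.0244%), 1 of which was that of Cyp26a1. Of the half-sites searched singly, AGGTCA (16.3% of all windows) was in no window of the 7 genes matched, AGTTCA (14%) was in those of Cyp26a1 and Stra6, and GGGTCA (13.7%) was in those of Aldh1a1 and Rbp4. Any 2 of these half-sites, in the same direction and 5 bases apart, were in 24 windows (0.0731%). Crabp2 and Aldh1a3 had no entry. A match describes letters in the window and says nothing of binding in these samples.

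Read by one rule of size, at least 5 CPM in either library and at least 2-fold apart, 2 of the 6 genes that reached 5 CPM in non-basal epithelium were higher in DES (Stra6 and Dhrs3), beside 9% of the 10119 genes that reached it. Lower were 3: Aldh1a1 at 0.403 (0.354 to 0.459), Aldh1a2 and Cyp26a1, beside 8.16% of genes. With CO 12 and CO 13 left out of the CO side, a setting chosen after seeing the data, the ratio of Aldh1a1 was 0.605 (0.523 to 0.701) and no longer 2-fold. Crabp2 did not reach 2-fold by this rule, but it did when every cell counted equally, and 3 genes were then higher. Stra6 reached 5 CPM only in DES and the 3 lower genes only in CO, so these counts describe the genes and support nothing further. In mesothelial cells 1 of 4 genes, Dhrs3, was higher, beside 2.32% of 10570 genes, and none was lower, beside 2.79%. The median ratio of all genes at this level was 1.06 in epithelium and 0.986 in mesothelium.

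**Figure D3:**
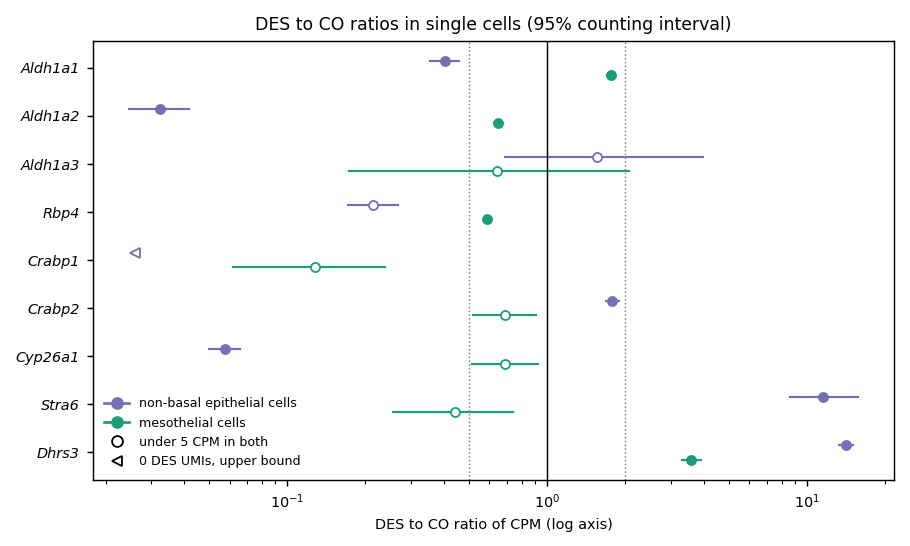
DES to CO ratio of CPM (log axis) of each gene in non-basal epithelial cells (purple) and mesothelial cells (green), with 95% counting intervals as lines, white points where both libraries were under 5 CPM, an open triangle at the upper bound where DES had no UMI, and dotted lines at 2-fold. In epithelium Dhrs3 (14.1) and Stra6 (11.5) lie on the right and Aldh1a2 (0.0324) and Cyp26a1 (0.0576) on the left.

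The sections gave a replicated comparison. Stra6, Dhrs3, Rbp4, Crabp2 and Aldh1a3 were higher in both DES sections than in both CO sections, and Aldh1a2 and Aldh1a1 were lower. The share of all genes that separated the sections in this way was not counted. Values are given for section A and then B of each group. Stra6 was at 3.36 and 6.34 CPM in the CO sections and at 92.4 and 69.8 in the DES sections. Dhrs3 was at 120 and 177 CPM in CO and at 720 and 977 in DES. For both genes the gap between the groups was far wider than that between sections of a group. By edgeR's quasi-likelihood test over 14098 genes with Benjamini-Hochberg adjustment, 2 of the 9 genes passed, both upward, beside 5.3% of all genes in either direction (2.67% higher and 2.63% lower): Stra6 with a log2 difference of 3.86 (SE 0.350, adjusted p = 0.0206) and Dhrs3 with 2.32 (SE 0.296, adjusted p = 0.0279). Neither passed without DES A (edgeR adjusted p = 0.0571 and 0.0854) or without DES B (0.0604 and 0.131), settings in which 14 and 3 genes passed in all.

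The other 7 genes did not pass in whole sections. Aldh1a2 was at 258 and 93.5 CPM in CO and 44.9 and 34.5 in DES, so the groups did not overlap, and the 2 CO sections themselves were 2.75-fold apart (log2 difference −2.37, SE 0.532, edgeR adjusted p = 0.0762). Aldh1a1 was at 33.4, 20.9, 12.8 and 12.9 CPM in the same order (log2 difference −1.29, edgeR adjusted p = 0.0798). Rbp4 was at 5.20, 17.6, 61.0 and 46.7 CPM, higher in both DES sections (log2 difference 2.04, edgeR adjusted p = 0.113). Over all single cells it was lower in DES, with a DES to CO ratio of 0.380. The DES library held 1 stromal cell and no cells labelled myocytes or pericytes. The part of cell capture in this ratio was not tested. Aldh1a2, Aldh1a1 and Rbp4 passed by DESeq2, as did 1791 of the 14098 genes. Their log2 differences by edgeR were −1.43, −0.89 and 1.42 without CO A, and −2.94, −1.61 and 3.13 without CO B. Whole DES sections held less of the muscle gene Myh11 (1855 and 1804 CPM in CO, 355 and 448 in DES) and of the stromal gene Dpt (147 and 220 in CO, 111 and 89.7 in DES), and more of the basal gene Krt14 (1.68 and 59.7 in CO, 4175 and 2019 in DES). The part of these tissue shares in the levels, those of Stra6 and Dhrs3 included, was not tested.

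For Crabp1, Crabp2 and Cyp26a1 sections of the same group lay far apart. Crabp1 was at 49.9 CPM in CO A and 56.7 in DES A, and at 7.16 in CO B and 6.07 in DES B. Crabp2 was at 28.1 and 2.08 CPM in CO and 106 and 48.9 in DES, so both DES sections were higher while the CO sections were 13.5-fold apart (log2 difference 2.11, edgeR adjusted p = 0.325). Cyp26a1 had 64 UMIs in CO B but 1 in CO A, 14 in DES A and 6 in DES B. Their log2 differences were −0.12 (SE 1.24) for Crabp1 and −1.64 (SE 1.52) for Cyp26a1, with edgeR adjusted p = 0.967 and 0.575. Without CO A the log2 difference was 5.01 for Crabp2 and −2.63 for Cyp26a1, and without CO B the sign for Cyp26a1 turned, at 3.33. The gland genes Napsa and Sult1d1 were also lower in CO A (13.5 and 8.80 CPM) than in CO B (47.0 and 73.7). Their gaps were smaller than that of Cyp26a1, at 0.0800 and 5.80 CPM, and the part of gland content was not tested. Aldh1a3 had 2 and 3 UMIs in the CO sections and 27 and 12 in the DES sections, 8.02-fold apart in the fit (edgeR adjusted p = 0.0949).

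**Figure D4:**
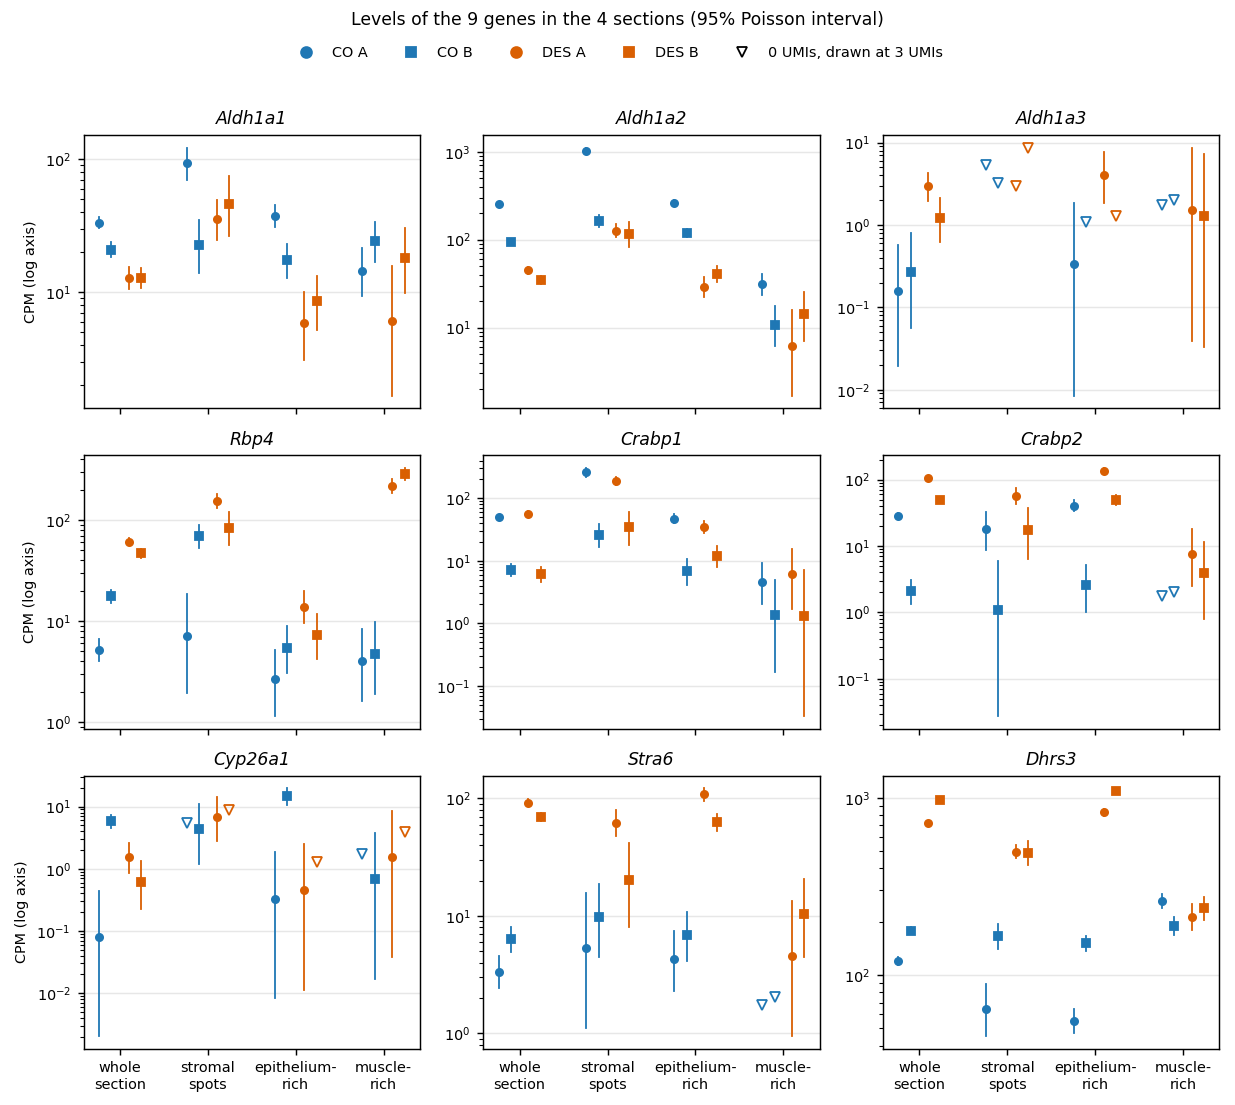
CPM (log axis) of each gene in the whole section, the stromal spots, the epithelium-rich spots and the muscle-rich spots of CO A and CO B (blue circle and square) and DES A and DES B (orange circle and square), with 95% Poisson intervals as lines and open triangles at 3 UMIs where none was counted. Stra6 and Dhrs3, among other genes, separate the groups in whole sections and epithelium-rich spots, and Rbp4 is among those that do so in muscle-rich spots.

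In epithelium-rich spots, the 15% of spots with the highest epithelial and lowest muscle marker levels, 3 of 7 genes passed by edgeR's quasi-likelihood test, beside 4.29% of 11442 genes (2.65% higher and 1.64% lower). Stra6 was at 4.31 and 6.93 CPM in CO and 108 and 63.1 in DES (log2 difference 3.67, SE 0.384, edgeR adjusted p = 0.0150). Dhrs3 was at 55.3 and 152 CPM in CO and 829 and 1092 in DES (log2 difference 2.97, SE 0.507, edgeR adjusted p = 0.0395). The third gene, Aldh1a2, fell from 264 and 120 CPM in CO to 29.2 and 40.8 in DES (log2 difference −2.71, SE 0.451, edgeR adjusted p = 0.0388).

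Aldh1a1 passed too by DESeq2, as did 867 of 11442 genes, and its log2 difference by edgeR without CO B was −2.65. Without CO A the log2 difference was 4.89 for Crabp2 and −5.98 for Cyp26a1. Cyp26a1 had 1, 40, 1 and 0 UMIs in these spots and was not tested with all 4 sections. The call for Stra6 held in all 8 alternatives, and those for Dhrs3 and Aldh1a2 were lost without DES A (edgeR adjusted p = 0.0593 and 0.158) and without DES B (0.0891 and 0.0915), and with every gene of at least 1 count (0.0602 and 0.0604). The stromal genes Pdgfra (43.7, 38.6, 22.4 and 19.3 CPM) and Dpt (77.2, 67.8, 38.6 and 35.6) were lower in the DES spots too, and the basal gene Krt14 was higher (2.65, 27.3, 4090 and 1550 CPM). Their part in the 3 differences was not tested. In the single DES cells both Stra6 and Dhrs3 were higher in basal than in non-basal epithelium (40.5 against 6.85 CPM and 622 against 173 CPM).

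The muscle-rich spots, chosen by the opposite rule, gave a wide difference for Rbp4. Rbp4 was at 4.06 CPM in CO A and 4.73 in CO B, with 7 UMIs each, and at 218 in DES A (143 UMIs) and 288 in DES B (222 UMIs). It was found in 3.26% and 2.55% of the CO spots and 32.2% and 44.1% of the DES spots. The log2 difference was 5.66 (SE 0.364, edgeR adjusted p = 4.63e-05), the third lowest p of 9504 genes. Of the 4 genes tested 1 passed, Rbp4, beside 1.89% of all genes (1.14% higher and 0.758% lower), and it passed in every alternative. Without CO B the log2 difference of Aldh1a2 was −1.71. Stra6 and Crabp2 were too low to be tested in these spots. In the 25% of spots with the highest muscle scores both passed upward (log2 differences 8.05 and 6.08), beside 385 of 10886 genes in either direction. There Stra6 was at 0 CPM in both CO sections and at 20.7 and 20.3 in the DES sections. Crabp2 was at 0.379 and 0 CPM in CO and at 25.6 and 16.9 in DES. With CO so near 0 the size of these differences is uncertain. Of these spots 40 of 394 in DES A and 94 of 339 in DES B lay in stromal clusters, against 0 in both CO sections. With every gene of at least 1 count Stra6 passed too (6.03), beside 608 of 16293 genes.

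Dhrs3 did not separate the groups there, at 262, 189, 214 and 238 CPM (log2 difference −0.16, SE 0.263, edgeR adjusted p = 0.863), and whether its difference varied between muscle-rich and epithelium-rich spots was not tested. The muscle-rich spots were not of like makeup, since 53 of 204 in DES B and 6 of 236 in DES A lay in stromal clusters, against 0 in both CO sections. Without those spots the log2 difference of Rbp4 was 5.74 (edgeR adjusted p = 0.000136), a setting chosen after seeing the data. Markers of other cell types were compared beside the Rbp4 result. The fat genes Adipoq and Cfd were at 24.4 and 267 CPM in DES A but 0 and 7.78 in DES B, and 0 and 3.38 at most in CO. Without every spot that held a UMI of Adipoq, Plin1 or Cfd, the log2 difference was 5.63 (edgeR adjusted p = 0.000298), also a setting chosen after seeing the data. The mesothelial gene Upk3b was at 2.90, 1.35, 9.16 and 13 CPM, while single DES mesothelial cells held 900 CPM of Upk3b. Alb, a liver gene, was at 0 CPM in 3 sections and 1.53 in DES A. Which cells held the Rbp4 of these spots was not tested.

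In the spots of the authors' stromal clusters 0 of 7 genes passed by edgeR's quasi-likelihood test, beside 1.47% of 8914 genes (0.796% higher and 0.673% lower), and 4 had an unadjusted p under 0.05. By DESeq2 1 passed, Dhrs3, beside 193 of 8914 genes. With spots chosen by marker score 1 passed, Stra6, beside 186 of 10289 genes. With every gene of at least 1 count 5 of 8 passed, Stra6 among them and 4 upward, beside 714 of 16195 genes. The spread within CO was wide for Aldh1a2, at 1026 CPM in CO A but 164 in CO B, beside 127 and 116 in the DES sections (log2 difference −2.33, SE 0.716, edgeR adjusted p = 0.185). Dhrs3 was at 64.5, 166, 497 and 491 CPM (log2 difference 2.03, SE 0.444, edgeR adjusted p = 0.0703), and Stra6 at 5.37, 9.76, 62.0 and 20.2 (log2 difference 2.39, edgeR adjusted p = 0.0950). Both, and Rbp4 as well, lay above the CO sections in both DES sections, and the share of all genes that did so was not counted. By edgeR without CO B the log2 differences were −3.11 for Aldh1a2, 2.90 for Dhrs3 and 4.02 for Rbp4. That of Crabp2 without CO A was 4.96. The stromal spots were not of like purity, since Acta2, a muscle gene, was at 235, 128, 1381 and 3424 CPM and Krt14 at 0, 36.9, 3153 and 817, and the part of these in the values was not tested.

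The last question was whether each gene was richer in stromal spots than in the rest of the same section, with the section kept as a block. Crabp1, Aldh1a2, Rbp4 and Aldh1a1 were. In CO sections these 4 of 8 genes passed upward by edgeR's quasi-likelihood test, beside 6.47% of 13542 genes (5.5% passed downward), with log2 differences of 2.50 (SE 0.234) for Crabp1, 1.55 (SE 0.221) for Aldh1a2, 1.98 (SE 0.331) for Rbp4 and 0.92 (SE 0.303) for Aldh1a1. Crabp1 was at 260 CPM in the stromal spots of CO A against 40.1 in its other spots, and at 26.0 against 5.44 in CO B. Rbp4 was richer in the stromal spots of CO B (69.4 against 12.9 CPM) and little so in CO A (7.16 against 5.11), and its call was lost without CO B, when the log2 difference was 0.33. That of Aldh1a1 was lost without CO A, at 0.081, and by DESeq2.

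In DES sections the same 4 genes passed upward, beside 7.16% of genes, with log2 differences of 2.42 (SE 0.249) for Crabp1, 1.96 (SE 0.252) for Aldh1a2, 1.97 (SE 0.353) for Aldh1a1 and 1.45 (SE 0.250) for Rbp4. A further 3 passed downward by edgeR's test, beside 5.66%: Crabp2 with −1.02 (SE 0.264), Stra6 with −0.87 (SE 0.269) and Dhrs3 with −0.71 (SE 0.190). Stra6 was at 62.0 CPM in the stromal spots of DES A against 96.2 in the others, and at 20.2 against 71.6 in DES B. The downward calls were lost by DESeq2, that of Crabp2 also without DES A and those of Stra6 and Dhrs3 without DES B. The call for Rbp4 was lost without DES A, when its log2 difference was 0.98.

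Whether the stromal excess differed between DES and CO was tested as a contrast, and 0 of 8 genes passed by edgeR's quasi-likelihood test, beside 3.37% of genes (2.58% higher and 0.783% lower). An unadjusted p under 0.05 was reached by 3 genes, and DESeq2 called 0 with 1 under that value. They were Stra6 at −1.52 (SE 0.586, edgeR adjusted p = 0.215), Aldh1a1 at 1.05 (SE 0.450, edgeR adjusted p = 0.298) and Cyp26a1, which has few counts. Without CO A the log2 difference of Aldh1a1 was 1.91. The stromal clusters came from these same counts, which makes p-values between them and the rest of a section too small.

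**Figure D5:**
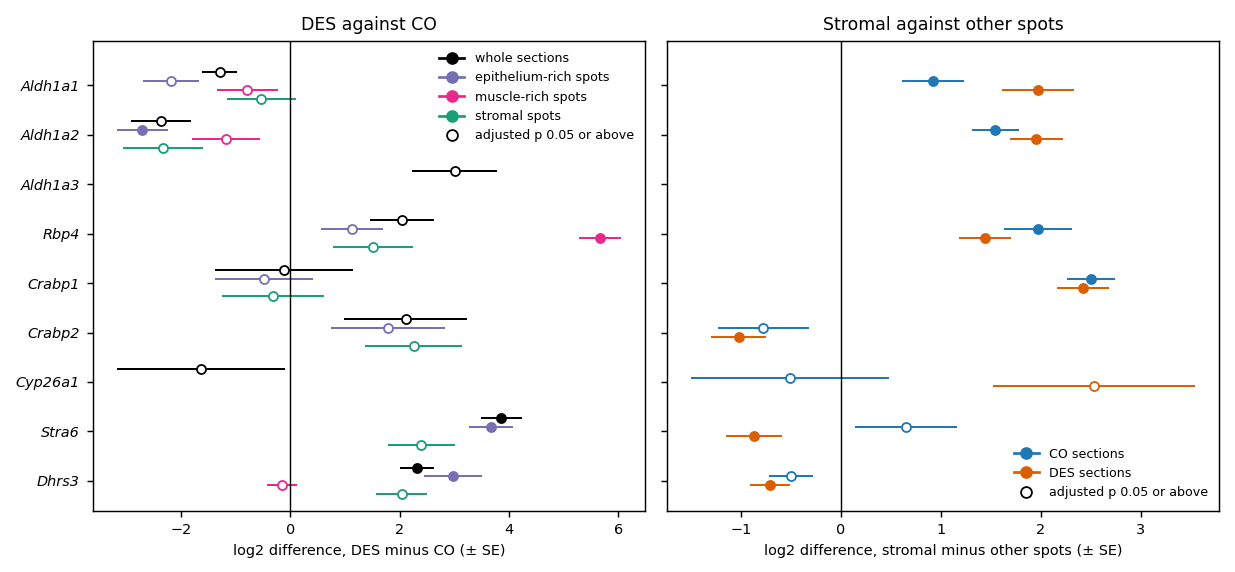
Log2 differences with SE from edgeR for each gene that could be tested, DES against CO in 4 regions (left) and stromal against other spots in CO and DES sections (right), filled where the adjusted p was below 0.05. Rbp4 in muscle-rich spots lies at 5.66, and Crabp1 has log2 differences of 2.50 and 2.42 on the right.

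Of 46 other retinoid genes listed by role, 23 reached 5 CPM in each cell set. In non-basal epithelium 5 of the 23 were at least 2-fold lower in DES, beside 8.16% of all genes: Lrat, which stores retinol as esters (0.407), Rdh11, a retinal reductase (0.429), Cyp2s1, which can oxidize retinoic acid (0.182), and the retinoid-responsive Tgm2 (0.193) and Tgfb2 (0.447). Any of the 23 at least 2-fold higher there is not reported here. Rarb, a retinoic acid receptor gene that retinoic acid is known to induce, had 3 UMIs in CO and 235 in DES, 0.0381 and 1.43 CPM, under the level set. In mesothelial cells Akr1b3 was higher (2.04) and none was lower, beside 2.32% and 2.79% of all genes. The median ratio of the 23 was 0.937 in epithelium and 0.996 in mesothelium.

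Sections and single cells did not always give the same picture of this wider list. In whole sections 0 of 34 passed upward and 1 downward by edgeR's test, beside 2.67% and 2.63% of all genes. The 1 was Rarres2 (log2 difference −1.67, SE 0.271, edgeR adjusted p = 0.0407). In epithelium-rich spots 1 of 27 passed, Tgfb2 upward, beside 2.65% of all genes (log2 difference 2.64, SE 0.50, edgeR adjusted p = 0.0492), from 6.63 and 2.19 CPM in CO to 37.7 and 29.6 in DES, the opposite direction to the single cells. Tgm2 there was at 1484 and 764 CPM in CO and 1097 and 2074 in DES, so the groups overlapped. None of the tested genes passed in stromal spots (23) or muscle-rich spots (24). Between stromal and other spots 3 of 33 passed in CO and 7 of 33 in DES, beside 12% and 12.8% of all genes, among them Rdh10, the enzyme that makes retinal, lower in stromal spots in both (log2 difference −1.24, SE 0.221, and −1.52, SE 0.221). The contrast called 2 of 33, both upward, beside 2.58% of all genes. The difference between stromal and other spots was more positive in DES than in CO for Adh1, a retinol dehydrogenase (log2 −0.17 in CO and 1.17 in DES, contrast 1.34, SE 0.311, edgeR adjusted p = 0.00786), and for Rarres2 (0.31 and 1.45, contrast 1.14, SE 0.266, edgeR adjusted p = 0.00839). Both contrasts were lost by DESeq2, without the section block and without DES B, at 0.82 and 0.77, and that of Rarres2 also without CO A, at 1.07. The calls of Tgfb2 in epithelium-rich spots and Rarres2 in whole sections were lost without DES A (log2 differences 2.50 and −1.61) and without DES B (2.77 and −1.75), and that of Tgfb2 also with every gene of at least 1 count.

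As a description of likeness, the gene whose level followed that of Cyp26a1 most closely over the 30 epithelial clusters with at least 30 cells was Atp6v0d2 (Pearson r of log2 levels 0.943), and Efhd1 was also close (0.899). For Dhrs3 they were Crh (0.926), Vpreb3 (0.922) and Porcn (0.909), and for Stra6 Ltbp1 (0.879), Soat1 (0.837) and Vpreb3 (0.829). Over 14 cell type and library groups Aldh1a2 was most like Col1a1 (0.947) and Crabp1 most like Crtac1 (0.977). The points share 2 libraries and their depths, and no test was made.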

How the data were processed

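Single cells were profiled with 10x Genomics 3′ chemistry after trypsin dissociation, and sections with 10x Visium. The authors made the deposited counts of UMIs with Cell Ranger 3.0.1 and Space Ranger 1.2.2 on mm10, removed doublets and called the cell types and clusters used here. The deposited values were used as raw counts, with no columns left unmapped. UMIs were summed per cell group or spot region and scaled to CPM in Python 3.11.15. For shares, cells were thinned to 3000 UMIs and shallower cells left out. Sections were tested with edgeR 4.0.16 (TMM, filterByExpr, quasi-likelihood) over all genes at an adjusted p of 0.05, with DESeq2 1.42.0 as an alternative. The test was checked on counts simulated with 1 spread for all genes. It called 34.3% of 2-fold changes in whole sections, 13.4% in stromal spots and 5.97% in the contrast. Of 4-fold changes it called 98.5%, 85.1% and 35.8%. Genes with few counts or a wider spread were not covered by this check. All 9 genes were named throughout. Genes, marker lists and rules were chosen with earlier results of these data known. Groups follow the sample labels, and the letter A of 2 sections follows the study's text. Nothing in the sources says how reads shared between near-identical genes were treated. A few results on other genes are not reported here.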

Additional observations from a re-analysis of the deposited data

Results flagged for a closer look

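Aldh1a1 moved in opposite directions in the 2 cell types compared. Its DES to CO ratio was 0.403 in non-basal epithelial cells and 1.76 in mesothelial cells, with 1 library per treatment, and the difference between the cell types was not tested. With CO 12 and CO 13 left out, the epithelial ratio was 0.605.

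Apart from totals over whole libraries, no comparison included the cells with no cell type in the deposited annotation. Among them Crabp2 was at 17.6 CPM in DES against 7.72 in CO, Stra6 at 13.1 against 2.57, Dhrs3 at 151 against 9.44 and Aldh1a3 at 0.378 against 0.0648. The DES to CO ratios of the other 5 genes were 0.000993 for Crabp1, 0.0957 for Cyp26a1, 0.104 for Aldh1a2, 0.335 for Rbp4 and 0.636 for Aldh1a1. The annotated cells held 1326 stromal cells in CO and 1 in DES. The part of such a gap in capture in these ratios was not tested. In whole sections Crabp1 was at 49.9 and 7.16 CPM in CO and at 56.7 and 6.07 in DES, while Aldh1a2 was lower in both DES sections.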

How the results depend on the processing

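Across the section tests 326 of 407 refits of single genes kept their direction and side of the threshold, 31 lost a call and 28 gained one. Sign changed in 22, none of them with a call. In whole sections the number of genes higher in DES, 2, ran from 0 to 4 with 1 section left out, and the number lower, 0, was 2 by DESeq2 and ran from 0 to 3. In stromal spots 0 were higher, against 1 by DESeq2, 4 with every gene of at least 1 count, 1 with spots chosen by marker score and 0 to 2 with 1 section left out. None was lower, against 1 with every counted gene and 0 to 1 with 1 section left out. In epithelium-rich spots the 2 higher became 1 with every counted gene and 1 to 3 with 1 section left out, and the 1 lower became 2 by DESeq2, 0 with every counted gene and 0 to 2. In muscle-rich spots the 1 higher became 2 with every counted gene and 3 with 25% of spots, and the 0 lower ran from 0 to 1. The cause of these shifts was not tested.

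Sections were the block for stromal against other spots, since both regions lie in 1 mouse. With no replicate block the 4 higher in CO became 0, and the 4 higher and 3 lower in DES became 0 and 0. With 1 section left out the lower count ran from 0 to 1 in CO and from 1 to 3 in DES, where DESeq2 gave 0, and the contrast's higher count ran from 0 to 1. No paired analysis was possible because DES and CO sections come from different mice that share no numbering beyond a letter.

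Over all genes, whole sections gave 747 calls, 1791 by DESeq2 and 3 to 2819 with 1 section left out, stromal spots 131 (40 to 714), epithelium-rich spots 491 (157 to 939), muscle-rich spots 180 (62 to 1237), stromal against other spots 1621 (137 to 2082) in CO and 1736 (51 to 1868) in DES, and the contrast 456 (1 to 646). With CO 3, CO 8, CO 13 and CO 14 left out of the CO side the single-cell ratio of Cyp26a1 turned from 0.0576 to 1.46. It was 0.0408 and that of Rbp4 in mesothelium 0.643 when every cell counted equally. With 1 library per treatment, counting depth does not cover variation between mice. At low depth Aldh1a3 and, in sections, Cyp26a1 allow no firm comparison.

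The 22 sign changes, as log2 differences, mostly came with 1 section left out. Over those settings Crabp1 ran from −2.45 to 1.92 in whole sections, −1.40 to 1.501 in epithelium-rich spots, −1.96 to 2.08 in stromal spots and −0.22 to 0.37 in the contrast. It was 0.19 in stromal spots chosen by score and 0.024 in the contrast by DESeq2. Cyp26a1 ran from −2.63 to 3.33 in whole sections, −4.75 to 3.01 between stromal and other DES spots and −4.23 to 4.85 in the contrast, and was 0.15 by DESeq2 between stromal and other CO spots. In the contrast Aldh1a2 ran from −0.087 to 1.11, Crabp2 from −0.65 to 0.021 (0.14 with no replicate block), Dhrs3 from −0.54 to 0.38 and Rbp4 from −0.99 to 1.11. Dhrs3 in muscle-rich spots ran from −0.36 to 0.063 (0.31 with 25% of spots), and Aldh1a1 in stromal spots from −1.28 to 0.69.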

Other observations

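Among spot clusters, Rbp4 reached 910 CPM in DES A cluster 9 (9 spots, 19 UMIs), 201 in DES A cluster 6 and 379 in DES B cluster 8, against 0 to 69.8 CPM over the 20 CO clusters. Dhrs3 reached 656 CPM in CO B cluster 10 (17 spots), against 146 to 205 in the other CO B clusters.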
